A study of Homo sapiens with 12 samples.

Results

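The genes described here encode 10 enzymes that build asparagine, serine, one-carbon units and proline. As a list they stand for synthesis enzymes that depend on the stress-responsive factor ATF4, a dependence that was not tested here for each gene. They were taken by name as ASNS, PHGDH, PSAT1, PSPH, SHMT2, MTHFD2, MTHFD1L, ALDH18A1, PYCR1 and PYCRL (current symbol PYCR3). All 10 were found among the 14866 genes listed, and all 10 were among the 13502 genes that passed a filter on low values, which asked for 3 or more libraries with a normalized count of 10 or more. PYCRL was the weakest of them and was under 10 in 2 of the NSM libraries.

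Gene expression was measured by RNA-sequencing in SHI-1 cells, an established acute myeloid leukaemia line that carries the MLL-AF6 fusion. Cultures received for 16 h either DMSO, the vehicle, or 0.3 µM disulfiram with 1 µM copper (DSF), or 5 µM niclosamide (NSM), or both treatments together (DSF+NSM), with 3 libraries in each group from separate experiments. Disulfiram is a drug against alcohol dependence that forms a complex with copper, and niclosamide is an anthelmintic that uncouples mitochondrial respiration. All 4 groups came from this 1 cell line, and the labels do not say whether the DMSO and NSM cultures also received copper.

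Each value is a normalized count, that is, the reads assigned to a gene divided by a factor for the library. Their sums, in units of 1e6, were 14.0 to 14.4 for DMSO libraries, 14.9 to 15.3 for DSF libraries, 16.5 to 17.5 for NSM libraries and 22.7 to 25.6 where both drugs were given, and the estimated depth was 10.2 to 19.0 M reads. The rRNA genes took 1.88% to 3.58% of the sum in DMSO and 9.63% to 11.7% in DSF+NSM. NSM replicate 3 stood apart, with a Spearman correlation across genes of 0.939 and 0.950 with the other NSM libraries, against 0.980 to 0.996 within every other pair of a group. All 10 myeloid markers were present, and their summed level was 66656 to 75971 in DMSO and 46167 to 52296 in DSF libraries, and 31908 to 37926 in NSM and 33971 to 35237 in DSF+NSM libraries. Most of that sum was MPO, a granule enzyme of myeloid precursors, with 54162 to 62640 in DMSO, 29316 to 36629 in DSF, 14453 to 18630 in NSM and 19671 to 22043 in DSF+NSM libraries. The other markers did not move together. CD14, ITGAM, CD68 and SPI1 were each higher in every treated library than in every DMSO library. LYZ, CSF1R and CEBPA were each lower in every NSM and DSF+NSM library than in every DMSO library, and CSF1R was higher in every DSF library. CD33 and PTPRC did not move the same way in all treated groups. Of the B cell markers MS4A1 was at 0 in every library, but the summed level of the list reached 640 in DSF+NSM replicate 1, mostly PAX5 at 471, and 212 in NSM replicate 2, against 28.7 to 34.8 in DMSO. T cell markers summed to 97.2 to 192, epithelial markers to 5.46 to 43.2 and fibroblast markers to 12.1 to 147, and no erythroid marker was listed. The part of these differences in the results was not tested.

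Cells make serine from the glycolytic intermediate 3-phosphoglycerate in consecutive steps, and mitochondria pass its side-chain carbon to folate, which supplies formate for purine and thymidylate synthesis. Proline is made from glutamate through pyrroline-5-carboxylate, and asparagine from aspartate and glutamine. When amino acids are short, or when the endoplasmic reticulum or mitochondria are stressed, phosphorylation of eIF2α favours translation of ATF4, which binds C/EBP-ATF composite elements in front of genes of these routes.

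The promoters of 3 members are shown because they hold the core of such an element, TGATGNAA, or the E-box CACGTG, to which MYC and related factors bind. RefSeq (GRCh38.p14) gave 10 promoter windows of 300 bases for 6 of the 10 members. Members are counted below as genes with a match in any window, whereas the shares are over single windows, so the 2 are not on the same footing. TGATGNAA on either strand was found in windows of 2 members (ASNS and MTHFD1L) and in 3.62% of all 35116 windows. CACGTG, which reads the same on both strands and does not overlap the first motif, was found in windows of 2 members (MTHFD1L and ALDH18A1) and in 7.26% of all windows. The windows of PHGDH, PSAT1 and MTHFD2 held neither. A match is a description of the letters only. The 250 bases before the start are printed 5′ to 3′ on the gene's strand for ASNS (chr7:97872409-97872658, minus strand), MTHFD1L (chr6:150866236-150866485, plus strand) and ALDH18A1 (chr10:95656712-95656961, minus strand), with the matches in capitals.
ASNS: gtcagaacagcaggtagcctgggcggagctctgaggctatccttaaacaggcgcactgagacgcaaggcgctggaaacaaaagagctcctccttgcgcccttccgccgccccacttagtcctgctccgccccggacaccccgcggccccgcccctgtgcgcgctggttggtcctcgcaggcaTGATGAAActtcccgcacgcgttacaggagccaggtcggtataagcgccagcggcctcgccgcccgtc
MTHFD1L: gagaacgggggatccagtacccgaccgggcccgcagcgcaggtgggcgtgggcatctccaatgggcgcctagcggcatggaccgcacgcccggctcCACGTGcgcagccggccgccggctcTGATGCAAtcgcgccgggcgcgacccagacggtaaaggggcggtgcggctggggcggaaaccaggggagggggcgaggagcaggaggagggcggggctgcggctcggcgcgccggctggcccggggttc
ALDH18A1: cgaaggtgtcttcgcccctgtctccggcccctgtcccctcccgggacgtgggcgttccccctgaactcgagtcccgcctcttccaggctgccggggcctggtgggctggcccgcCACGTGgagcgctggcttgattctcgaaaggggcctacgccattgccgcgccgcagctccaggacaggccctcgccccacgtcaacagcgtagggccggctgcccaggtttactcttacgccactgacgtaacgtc
Counted from the start site, with -1 as the base before it, the ASNS match TGATGAAA began at -68. In MTHFD1L, CACGTG began at -154 and TGATGCAA at -129. RefSeq gives more than 1 start for ASNS and MTHFD1L. Counted from other starts of MTHFD1L, the same letters began at -115 and -90, or at -1 with TGATGCAA past the start. Another window of MTHFD1L and another of ASNS held no match. In ALDH18A1, CACGTG began at -136.

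Under DMSO the members spanned a wide range of levels once divided by the length of the canonical transcript. SHMT2 was first, with a mean of 1752 normalized counts per kb (range 1681 to 1789), followed by ASNS at 883 (846 to 931). MTHFD2 at 467 and ALDH18A1 at 457 overlapped, PHGDH had 407, and PYCR1 at 358 and PSAT1 at 323 overlapped again. PSPH had 234, MTHFD1L 160 and PYCRL 57.7 normalized counts per kb, with no overlap between them. In NSM libraries ASNS took the first place with 3341 to 4128 normalized counts per kb, above every library of every other member. The 10 genes together made up 0.0891% to 0.0936% of the library sum in DMSO. This share was 0.116% to 0.133% with DSF, 0.157% to 0.194% with NSM and 0.0634% to 0.0890% with DSF+NSM, and was thus highest under niclosamide alone. As a sum of normalized counts the members reached 12678 to 13142 in DMSO, 17810 to 20400 in DSF, 27154 to 31992 in NSM and 16227 to 20168 in DSF+NSM, so that DSF+NSM lay above DMSO as a sum and below it as a share.

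Against DMSO, the treatments shifted overlapping portions of the list. A gene is called here when the adjusted p of limma's moderated test on log2(normalized count + 1), corrected over all 13502 genes by Benjamini-Hochberg, was under 0.05. DSF raised 4 of the 10 members and lowered 0, where 11.9% of all genes tested were called higher and 5.95% lower. At an unadjusted p under 0.05, 1 member (ALDH18A1) was lower. NSM raised 5 members and lowered 2, where 25.4% of all genes were higher and 23.7% lower. DSF+NSM raised 4 and lowered 3, where 28.3% were higher and 24.5% lower, so in a list of 10 these counts were not far from the shares. ASNS, PHGDH and MTHFD2 were raised by all 3 treatments, and PSAT1 by DSF and by NSM. ALDH18A1 and PYCRL were lowered by NSM and by DSF+NSM. The median log2 fold change over the members was 0.41 under DSF, 0.69 under NSM and 0.09 with both drugs, and over all genes tested it was 0.05, 0.01 and 0.03. The 3 comparisons share the DMSO libraries. The fit takes 1 spread per gene from all 4 groups, so NSM libraries can widen intervals even where NSM is not compared. The median SD over genes on the log2 scale was 0.41 in NSM and 0.11 in DMSO. Without any 1 of the DMSO libraries or without DSF replicate 1 or 2, DSF raised 2 members, and without DMSO replicate 2, DMSO replicate 3 or DSF+NSM replicate 3, DSF+NSM raised 2. Shares of all genes called without those libraries are not given. In bulk RNA, fewer cells of a type and less RNA per cell cannot be told apart.

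The DSF+NSM counts depended on how the libraries were scaled. When every library was scaled to the same sum, the median of all genes moved to -0.75 for DSF+NSM against DMSO, and limma called 0 members higher (0 also at an unadjusted p under 0.05) and 6 lower. On that scale NSM still raised 5 members and lowered 2, and DSF raised 3 and lowered 1, as PSAT1 lost its call and ALDH18A1 gained one. Shares of all genes called on that scale are not given, so these member counts cannot be read as particular to the list. Values below are on the authors' scale unless said otherwise.

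**Figure D1:**
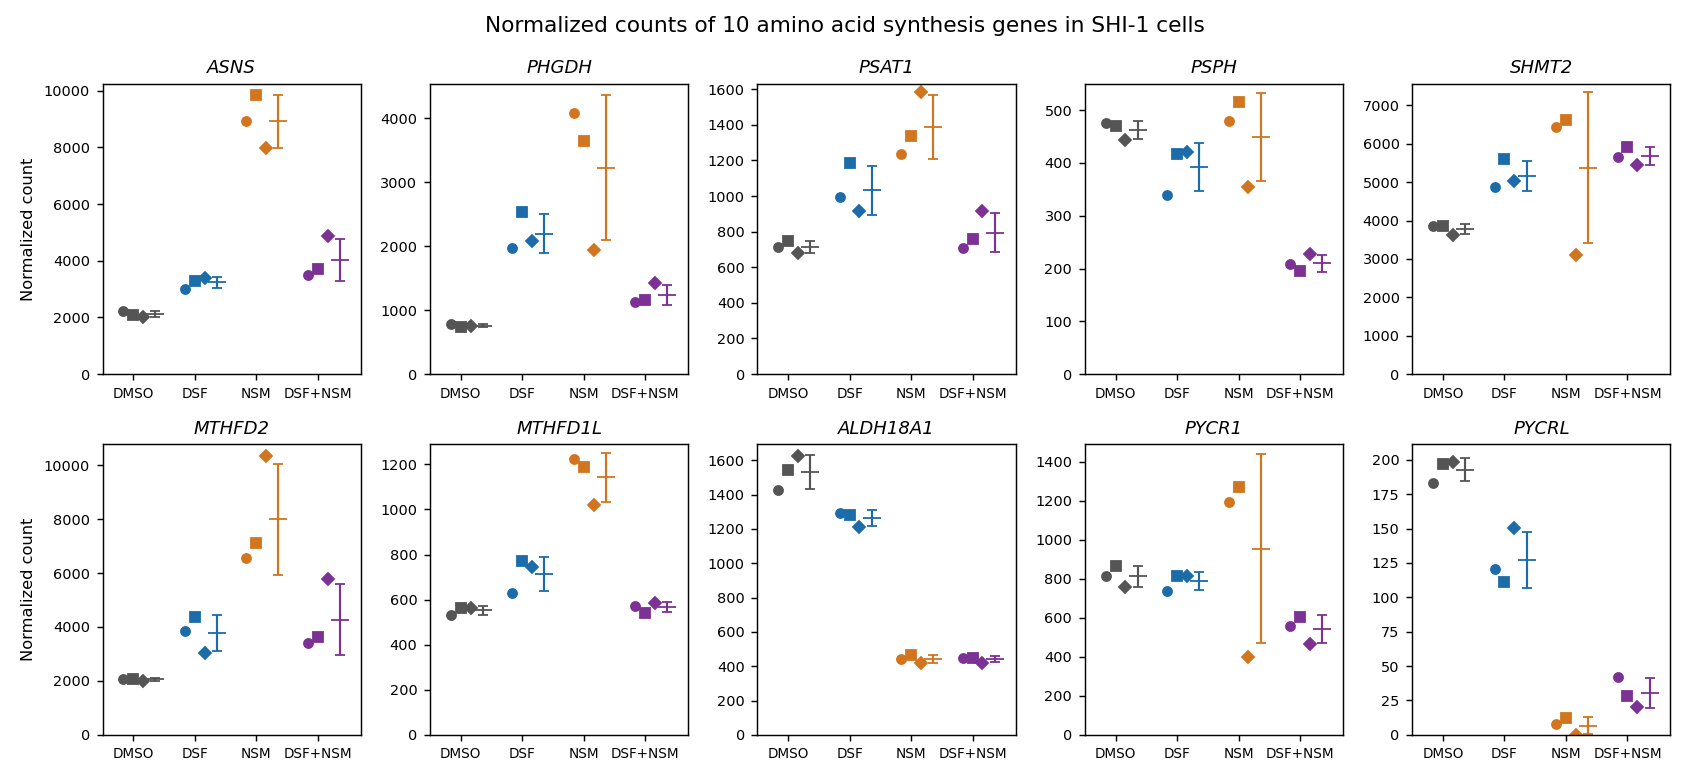
Normalized count (linear axis from 0) of each of the 10 genes in the 12 libraries, with circles, squares and diamonds for replicates 1, 2 and 3 and the mean ± SD of 3 libraries beside them. ASNS, PHGDH, PSAT1, MTHFD2, MTHFD1L and PYCR1 had their highest mean in NSM, and ALDH18A1 lay between 419 and 466 in both groups with niclosamide. NSM replicate 3 (diamond) lay far below the other NSM libraries for PHGDH, SHMT2 and PYCR1.

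**Figure D2:**
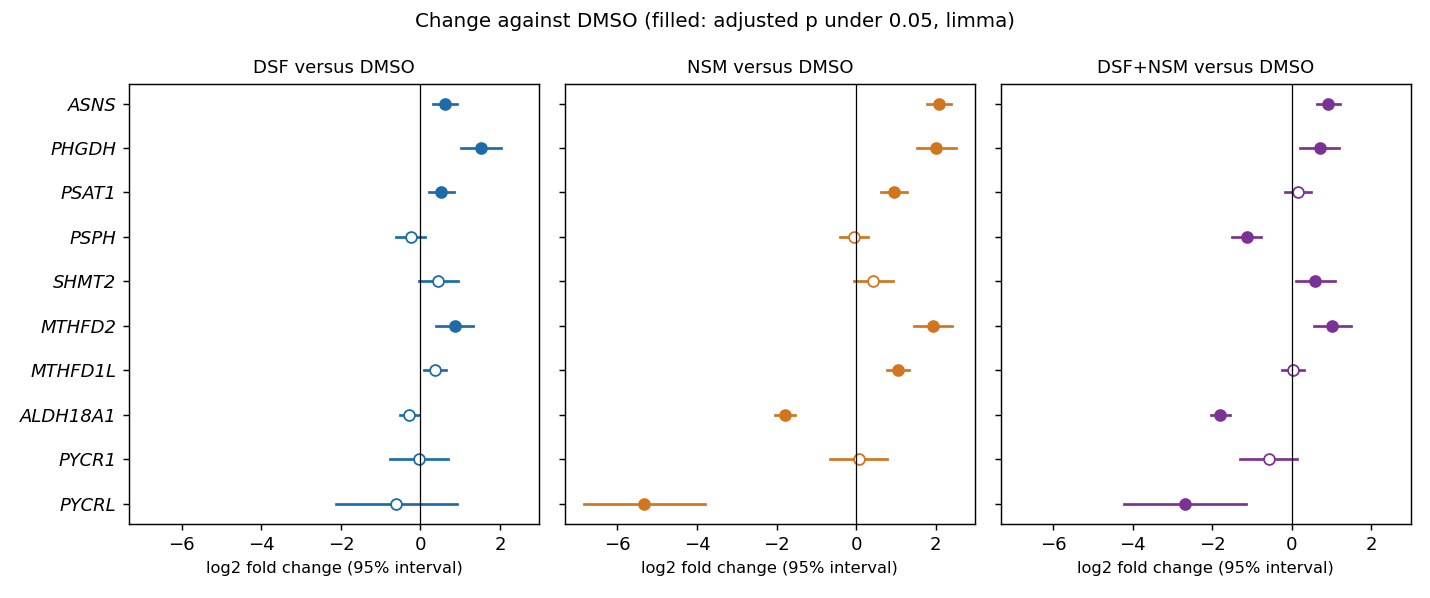
Log2 fold change against DMSO with its 95% interval from limma for each gene, filled where the adjusted p was under 0.05. Filled points lie to the right of 0 for 4 genes under DSF, 5 under NSM and 4 under DSF+NSM, and to the left for 0, 2 and 3.

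ASNS, which makes asparagine from aspartate and glutamine (chr7:97851677-97872542, GRCh38, GENCODE 44), rose under each treatment and most under NSM. Its normalized counts were 2220, 2084 and 2017 in DMSO, 3009, 3298 and 3406 in DSF, 8940, 9845 and 7969 in NSM, and 3488, 3698 and 4876 in DSF+NSM. The 4 groups did not overlap, and all NSM libraries lay above all others. The log2 fold change against DMSO was 0.62 ± 0.14 (SE, adjusted p = 0.00965, limma) for DSF, 2.08 ± 0.14 (adjusted p = 4.33e-07) for NSM and 0.92 ± 0.14 (adjusted p = 0.000132) for DSF+NSM. With libraries scaled to equal sums the last was 0.13 (adjusted p = 0.478). ASNS shares 2415 exon bases with a lncRNA on the same strand and has 5 pseudogenes in RefSeq, none of them listed, so that reads from these copies could be counted with it.

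The serine route opened with the largest DSF response of the list. PHGDH, the dehydrogenase of its first and committed step (chr1:119648411-119744218), had 779, 740 and 760 normalized counts in DMSO, 1973, 2538 and 2074 in DSF, 4090, 3650 and 1946 in NSM, and 1131, 1161 and 1419 in DSF+NSM. Every treated library was above every DMSO library, and the DSF+NSM libraries lay below those of both single drugs. PHGDH rose by a log2 fold change of 1.52 ± 0.23 (SE, adjusted p = 0.000921, limma) with DSF and 2.02 ± 0.23 (adjusted p = 2.15e-05) with NSM, and by 0.70 ± 0.23 (adjusted p = 0.0219) with both. The last call was lost without DMSO replicate 2, DMSO replicate 3 or DSF+NSM replicate 3 (adjusted p = 0.0549 to 0.0806), and with equal sums the value turned to -0.09.

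PSAT1, the transaminase of the second step (chr9:78297125-78330093), had 711, 747 and 679 normalized counts in DMSO, 997, 1185 and 917 in DSF, 1239, 1339 and 1586 in NSM, and 708, 758 and 918 in DSF+NSM. It was above DMSO in all libraries of either drug alone, whereas the DSF+NSM libraries overlapped both DMSO and DSF. The log2 fold change was 0.53 ± 0.15 (SE, adjusted p = 0.0284, limma) with DSF, 0.95 ± 0.15 (adjusted p = 0.000222) with NSM and 0.15 (95% interval -0.17 to 0.47, adjusted p = 0.418) with both. The DSF call was lost without any 1 of the DMSO libraries or without DSF replicate 1 or 2 (adjusted p = 0.0728 to 0.147). With equal sums the DSF+NSM value turned to -0.63 and was called lower. PSAT1 has 4 RefSeq pseudogenes, none listed.

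PSPH, the phosphatase that releases serine in the last step (chr7:56011051-56051604), went a different way. It had 476, 469 and 444 normalized counts in DMSO, 339, 417 and 420 in DSF, 479, 515 and 355 in NSM, and 209, 195 and 227 in DSF+NSM. The DSF+NSM libraries were below all others, and the NSM libraries spread on both sides of DMSO. PSPH fell with both drugs together by 1.14 on the log2 scale (SE 0.17, adjusted p = 0.000106, limma), while the change was -0.25 (95% interval -0.60 to 0.11, adjusted p = 0.330) with DSF and -0.06 (-0.42 to 0.30, adjusted p = 0.786) with NSM. Without NSM replicate 3 the NSM value was 0.10 (adjusted p = 0.520). With only DSF and DMSO in the fit, PSPH was called lower with DSF. PSPH has 1 RefSeq pseudogene, not listed.

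In the mitochondrial one-carbon route MTHFD2 and MTHFD1L had their highest levels under NSM. MTHFD2, which oxidizes methylene-tetrahydrofolate in mitochondria (chr2:74186172-74217565), had 2072, 2084 and 2008 normalized counts in DMSO, 3848, 4385 and 3054 in DSF, 6546, 7098 and 10354 in NSM, and 3410, 3634 and 5785 in DSF+NSM. All treated libraries were above DMSO, the NSM libraries were above all others, and DSF and DSF+NSM overlapped. Its log2 fold change was 0.86 ± 0.22 (SE, adjusted p = 0.0188, limma) with DSF, 1.93 ± 0.22 (adjusted p = 2.07e-05) with NSM and 1.02 ± 0.22 (adjusted p = 0.00182) with both. The DSF call was lost without any 1 of the DMSO libraries or without DSF replicate 1 or 2 (adjusted p = 0.0606 to 0.0983), and with equal sums the DSF+NSM value was 0.23 (adjusted p = 0.401). MTHFD2 has 7 RefSeq pseudogenes, none listed, and shares 1324 exon bases with SLC4A5 on the opposite strand, which had at most 7.43 normalized counts in any library.

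MTHFD1L, the mitochondrial synthetase that releases formate (chr6:150865679-151101887), had 531, 563 and 562 normalized counts in DMSO, 628, 770 and 744 in DSF, 1224, 1187 and 1019 in NSM, and 573, 542 and 583 in DSF+NSM. NSM libraries were highest and DSF libraries next, and DSF+NSM libraries overlapped DMSO. MTHFD1L rose by a log2 fold change of 1.05 ± 0.13 (SE, adjusted p = 3.83e-05, limma) with NSM. The change was 0.37 (95% interval 0.09 to 0.64, adjusted p = 0.0665) with DSF and 0.04 (-0.24 to 0.31, adjusted p = 0.830) with both. Without NSM replicate 3 the DSF change was called (adjusted p = 0.00719), and with equal sums the DSF+NSM value turned to -0.75 and was called lower.

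SHMT2, which moves the carbon of serine onto folate in mitochondria (chr12:57229573-57234935), had 3858, 3851 and 3626 normalized counts in DMSO, 4864, 5598 and 5035 in DSF, 6425, 6611 and 3105 in NSM, and 5657, 5913 and 5456 in DSF+NSM. All DSF and DSF+NSM libraries were above DMSO, and NSM replicate 3 was the lowest library of the 12 while the other NSM libraries were the highest. SHMT2 rose by a log2 fold change of 0.59 ± 0.22 (SE, adjusted p = 0.0435, limma) with both drugs, a call that was lost without any 1 of the DMSO, DSF or DSF+NSM libraries (adjusted p = 0.0562 to 0.108). With equal sums this value turned to -0.20. The change was 0.45 (95% interval -0.04 to 0.94, adjusted p = 0.189) with DSF and 0.43 (-0.06 to 0.92, adjusted p = 0.131) with NSM. Without NSM replicate 3 they were 0.45 (adjusted p = 0.000357) and 0.79 (adjusted p = 1.96e-06). SHMT2 shares 352 exon bases with an antisense lncRNA, and the library kit does not mark strand.

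Members of the proline route, ALDH18A1 and PYCRL, were the 2 called lower with NSM. ALDH18A1, the synthase that turns glutamate into the precursor of proline and ornithine (chr10:95605941-95656711), had 1429, 1543 and 1627 normalized counts in DMSO, 1295, 1282 and 1213 in DSF, 445, 466 and 421 in NSM, and 451, 451 and 419 in DSF+NSM. Both groups with niclosamide were far below DMSO and DSF and overlapped each other. ALDH18A1 fell by 1.78 on the log2 scale (SE 0.11, adjusted p = 3.11e-07, limma) with NSM and fell by 1.80 (SE 0.11, adjusted p = 1.23e-07) with both drugs, so that the mean was 29.0% and 28.7% of DMSO. With DSF the change was -0.28 (95% interval -0.52 to -0.03, adjusted p = 0.109), and without NSM replicate 3 that change was called (adjusted p = 0.0188).

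PYCRL, a reductase of the last step of proline synthesis (chr8:143603210-143609773), had 183, 197 and 198 normalized counts in DMSO, 120, 111 and 150 in DSF, 7.57, 12.1 and 0 in NSM, and 42.2, 28.5 and 20.5 in DSF+NSM. The 4 groups did not overlap, and NSM libraries were lowest. The 0 in NSM replicate 3 allows up to 3.84 normalized counts there (3 reads, counting error only). PYCRL fell by 5.33 on the log2 scale (SE 0.70, adjusted p = 6.69e-05, limma) with NSM and fell by 2.68 (SE 0.70, adjusted p = 0.00650) with both drugs. With a pseudocount of 0.1 the latter call was lost (adjusted p = 0.0982). Over the alternatives the NSM value ranged from -6.51 with a pseudocount of 0.1 to -3.69 with a pseudocount of 10. With DSF it was -0.61 (95% interval -2.13 to 0.92, adjusted p = 0.594). This interval takes its spread from all 4 groups. The log2 SD of PYCRL was 1.99 in NSM against 0.063 in DMSO and 0.22 in DSF. With only DSF and DMSO in the fit, PYCRL was called lower. TIGD5, which shares 15 exon bases with PYCRL on the opposite strand, had 82.3 to 103 normalized counts in DMSO and 17.9 to 54.3 in NSM.

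PYCR1, the mitochondrial reductase of the same last step (chr17:81932384-81942412), had 815, 863 and 758 normalized counts in DMSO, 736, 817 and 812 in DSF, 1195, 1270 and 400 in NSM, and 559, 604 and 465 in DSF+NSM. The DSF+NSM libraries were below all DMSO and DSF libraries, and NSM held both the highest libraries and the lowest. PYCR1 was not called in any comparison, with a log2 fold change of -0.04 (95% interval -0.77 to 0.68, adjusted p = 0.945, limma) for DSF, 0.06 (-0.66 to 0.79, adjusted p = 0.891) for NSM and -0.59 (-1.31 to 0.14, adjusted p = 0.157) for both. Without NSM replicate 3 it was called higher with NSM at 0.60 (adjusted p = 0.000436) and lower with both drugs at -0.59 (adjusted p = 0.000163). The log2 SD of PYCR1 was 0.94 in NSM against 0.094 in DMSO and 0.19 in DSF+NSM. With only DSF+NSM and DMSO in the fit, PYCR1 was called lower. PYCR1 shares 408 exon bases with MYADML2 on the same strand and 450 with an antisense lncRNA.

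NSM replicate 3 therefore mattered unevenly for the list. Its level relative to the mean of the other NSM libraries was 0.325 for PYCR1, 0.476 for SHMT2 and 0.503 for PHGDH, but 0.925 for ALDH18A1, 0.848 for ASNS, 1.23 for PSAT1 and 1.52 for MTHFD2. Over all genes tested the median absolute log2 difference of this library was 0.636 and the 90th percentile 1.46, so that only PYCR1 and PYCRL of the members lay beyond the latter. The cause of its separation was not tested.

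Adding disulfiram to niclosamide lowered most of these genes. Against NSM alone, DSF+NSM lowered 6 of the 10 members and raised 1, where 18.3% of all genes tested were lower and 20.3% higher. The median log2 difference was -0.86 over the members and 0.03 over all genes. ASNS fell by 1.16 (adjusted p = 4.98e-05, limma), PHGDH fell by 1.32 (adjusted p = 0.000772), PSAT1 fell by 0.80 (adjusted p = 0.00117), PSPH fell by 1.08 (adjusted p = 0.000330), MTHFD2 fell by 0.92 (adjusted p = 0.00580) and MTHFD1L fell by 1.01 (adjusted p = 8.52e-05). The member that was higher was PYCRL, at 2.64 (adjusted p = 0.0108), and this call was lost when PYCRL was fitted on these groups alone (adjusted p = 0.0820). Leaving out 1 library at a time moved its value between 1.51, without NSM replicate 3, and 3.36. ALDH18A1 was at -0.01, with a 95% interval of -0.26 to 0.23 (adjusted p = 0.945), and SHMT2 was at 0.16 (-0.33 to 0.64, adjusted p = 0.606). PYCR1 was at -0.65 (-1.37 to 0.07, adjusted p = 0.141), and without NSM replicate 3 at -1.19 (adjusted p = 1.40e-06). With equal sums 8 members were lower, as ALDH18A1 (-0.53, adjusted p = 0.00244) and PYCR1 (-1.16, adjusted p = 0.0110) were also called, where the median of all genes was -0.48.

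Against DSF alone, DSF+NSM lowered 4 members and raised 0, where 21.4% of all genes were lower and 21.7% higher. At an unadjusted p under 0.05, 1 member (ASNS) was higher. The median log2 difference was -0.46 over the members and 0.01 over all genes. ALDH18A1 fell by 1.52 (adjusted p = 1.52e-06, limma), PSPH fell by 0.89 (adjusted p = 0.00100), PHGDH fell by 0.83 (adjusted p = 0.0113) and PYCRL fell by 2.08 (adjusted p = 0.0306). The PHGDH call was lost without DSF replicate 2 (adjusted p = 0.0514), and the PYCRL call without any 1 of the DSF libraries or DSF+NSM replicate 2 or 3 (adjusted p = 0.0613 to 0.101) or with a pseudocount of 0.1 (adjusted p = 0.214). ASNS was at 0.30 (95% interval 0.00079 to 0.60, adjusted p = 0.0983) and turned to -0.39 with equal sums, whereas without NSM replicate 3 it was called higher (adjusted p = 0.0291). PSAT1 was at -0.38 (adjusted p = 0.0556) and was called without NSM replicate 1, NSM replicate 3 or DSF+NSM replicate 3 (adjusted p = 0.0102 to 0.0491), and MTHFD1L at -0.33 (adjusted p = 0.0537) was called without DSF replicate 1 or NSM replicate 3 (adjusted p = 0.0405 and 0.00827). PYCR1 was at -0.55 (95% interval -1.27 to 0.18, adjusted p = 0.208), and was called without NSM replicate 3 (adjusted p = 0.000404). SHMT2 at 0.14 (-0.35 to 0.63, adjusted p = 0.652) and MTHFD2 at 0.16 (-0.31 to 0.63, adjusted p = 0.587) were not called, and both turned below 0 with equal sums. The number of members lowered was 2 without DSF replicate 2 and 7 without NSM replicate 3, and the shares of all genes in those fits are not given.

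Whether the effect of 1 drug differed in the presence of the other was tested as the interaction, which is the difference between DSF+NSM and NSM minus the difference between DSF and DMSO on the log2 scale. It was below 0 and called for 6 members and above 0 and called for 1, where 14% of all genes were called below and 12.1% above. The median was -1.08 over the members and 0.01 over all genes. For PHGDH the interaction was -2.84 (95% interval -3.54 to -2.14, adjusted p = 0.000119, limma), as it rose by 1.52 when DSF was set against DMSO and fell by 1.32 when DSF was added to NSM. For ASNS it was -1.78 (adjusted p = 9.73e-05), for MTHFD2 -1.77 (adjusted p = 0.00143), for MTHFD1L -1.38 (adjusted p = 0.000272) and for PSAT1 -1.33 (adjusted p = 0.000772). PSPH had -0.83 (adjusted p = 0.0200), a call that was lost without DMSO replicate 3, DSF replicate 2, DSF replicate 3 or DSF+NSM replicate 2 (adjusted p = 0.0505 to 0.0561). PYCRL had 3.25 (adjusted p = 0.0298), a call that was lost without any 1 of the DMSO or DSF libraries or DSF+NSM replicate 1 or 2 (adjusted p = 0.0504 to 0.0767) and also with a pseudocount of 0.1. Its value ran from 2.11, without NSM replicate 3, to 3.97 with 1 library left out. SHMT2 (-0.29, 95% interval -0.98 to 0.40, adjusted p = 0.535), ALDH18A1 (0.27, -0.08 to 0.61, adjusted p = 0.245) and PYCR1 (-0.61, -1.63 to 0.42, adjusted p = 0.371) were not called. Without NSM replicate 3, SHMT2 was called at -0.65 (adjusted p = 0.000351) and PYCR1 at -1.15 (adjusted p = 3.65e-05).

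The transcripts of ATF4 and of its targets DDIT3, the transcription factor CHOP, and TRIB3, a pseudokinase, were high in both groups with niclosamide. ATF4 had 9707, 8833 and 8049 normalized counts in DMSO, 12902, 15226 and 14061 in DSF, 30445, 26500 and 22166 in NSM, and 26892, 26814 and 23065 in DSF+NSM. NSM and DSF+NSM overlapped and both were above DSF. The log2 fold change of ATF4 against DMSO was 0.67 (adjusted p = 0.00568, limma) with DSF, 1.57 (adjusted p = 2.70e-06) with NSM and 1.53 (adjusted p = 1.87e-06) with both. DDIT3 was higher by 3.14 with DSF, 4.85 with NSM and 4.99 with both, and TRIB3 by 2.29, 3.73 and 3.65, all called. DSF+NSM against NSM gave -0.03 (95% interval -0.33 to 0.26, adjusted p = 0.859) for ATF4, 0.14 (-0.29 to 0.57, adjusted p = 0.600) for DDIT3 and -0.07 (-0.66 to 0.51, adjusted p = 0.852) for TRIB3. The 6 enzymes that fell were picked by this same comparison, so their intervals lay below 0 by that choice. Their upper ends were at -0.44 (MTHFD2) or lower, below the intervals of ATF4 and DDIT3, while that of TRIB3 overlapped some of them. Among the other members, ALDH18A1, SHMT2 and PYCR1 were not called and PYCRL was higher. Without NSM replicate 3 the interval of MTHFD2 (-1.13 to -0.30) overlapped those of ATF4 (-0.39 to 0.084) and DDIT3 (-0.39 to 0.46). With equal sums, where the median of all genes was -0.48 in this comparison, ATF4 was called lower at -0.55 (adjusted p = 0.00268), DDIT3 turned to -0.37 and ASNS was at -1.67. Without NSM replicate 3, TRIB3 was called lower at -0.48 (adjusted p = 0.00980). RNA levels do not measure ATF4 protein.

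**Figure D3:**
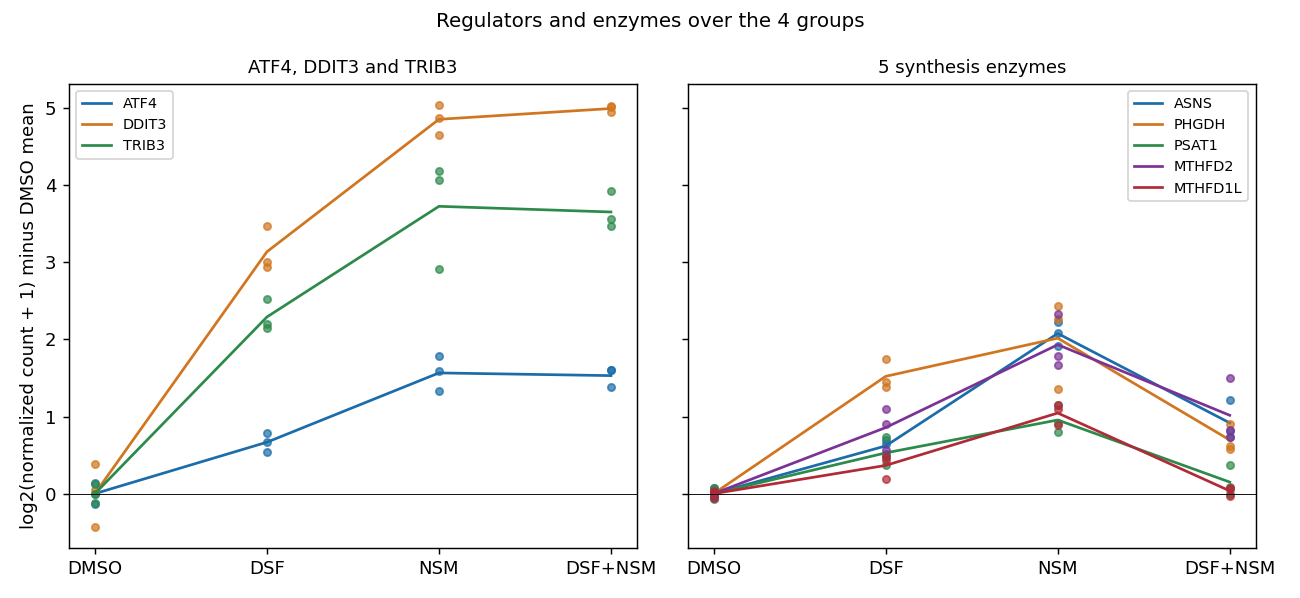
Log2(normalized count + 1) minus its DMSO mean in each library (points) and group means (lines), for ATF4, DDIT3 and TRIB3 on the left and for 5 of the enzymes on the right, on 1 shared axis. The 5 enzymes are those called higher with NSM. The regulators were as high in DSF+NSM as in NSM to within 0.14 of the group means, while the 5 enzymes were lower by 0.80 to 1.32. As these enzymes were picked by the same NSM libraries, part of that drop is set by the choice. Of the members not shown, PSPH (-1.08) and PYCR1 (-0.65, not called) were also lower. ALDH18A1 (-0.01) and SHMT2 (0.16) were not called, and PYCRL (2.64) was higher. TRIB3 was called lower without NSM replicate 3 (-0.48), and ATF4 with equal sums (-0.55).

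Each mitochondrial one-carbon enzyme has a paralog. On the authors' scale the cytosolic ones were called lower with NSM and with DSF+NSM, where their mitochondrial relatives were not. With equal sums MTHFD1L was itself called lower with DSF+NSM at -0.75 (adjusted p = 0.000354, limma), and SHMT2 turned to -0.20. SHMT1, the cytosolic serine hydroxymethyltransferase, had 858, 901 and 981 normalized counts in DMSO, 837, 982 and 1081 in DSF, 376, 333 and 265 in NSM, and 489, 568 and 420 in DSF+NSM. It fell by 1.50 on the log2 scale (adjusted p = 2.00e-05, limma) with NSM and fell by 0.90 (adjusted p = 0.000716) with both drugs. MTHFD1, the trifunctional cytosolic enzyme, had 3719 to 4131 normalized counts in DMSO, 1792 to 2087 in NSM and 2200 to 2743 in DSF+NSM, and fell by 1.03 (adjusted p = 1.80e-05) and fell by 0.68 (adjusted p = 0.000304). The ratio of SHMT2 to SHMT1 per kb had a median of 5.01 in DMSO (4.33 to 5.27) and 6.68 in DSF, and of 20.0 in NSM (13.7 to 23.2) and 13.6 in DSF+NSM (12.2 to 15.2). The ratio of MTHFD1L to MTHFD1 per kb had a median of 0.130 in DMSO (0.124 to 0.130) and 0.192 in DSF, and of 0.536 in NSM (0.485 to 0.605) and 0.203 in DSF+NSM (0.191 to 0.242). Both ratios are taken within a library and do not depend on its scaling, and both were above their DMSO range in every treated library.

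MTHFD2L, the mitochondrial relative of MTHFD2, was low, with 28.7 to 164 normalized counts over the 12 libraries, and was not called against DMSO in any group (adjusted p = 0.0661 to 0.413, limma). Without NSM replicate 1, MTHFD2L was called higher with NSM at 1.11 (adjusted p = 0.0107). The ratio of MTHFD2 to MTHFD2L per kb had a median of 21.1 in DMSO and 49.6 in DSF, and of 46.3 in NSM and 29.7 in DSF+NSM.

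**Figure D4:**
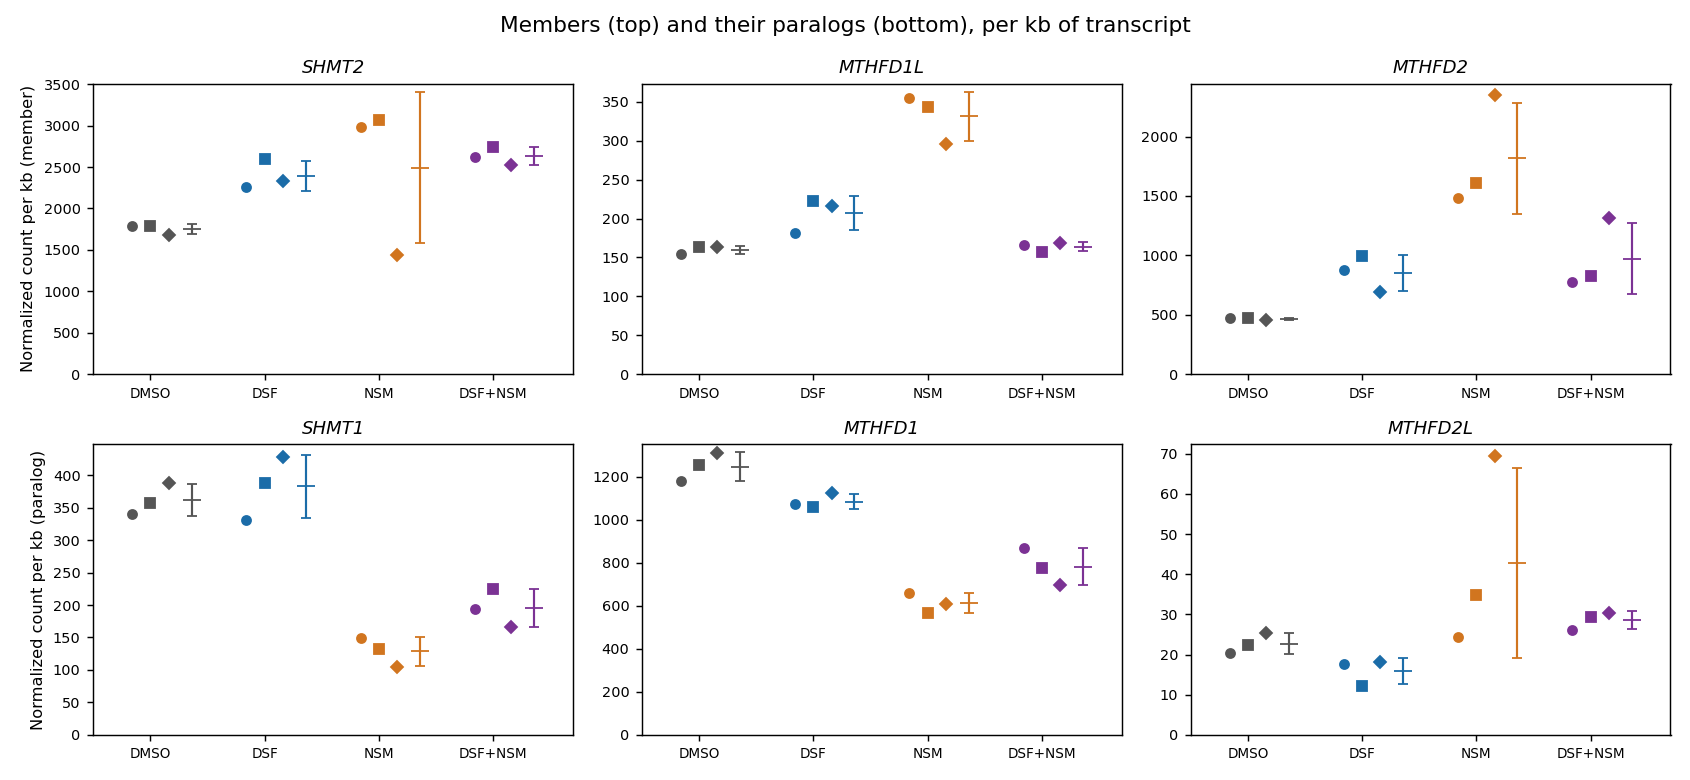
Normalized count per kb of canonical transcript (linear axes from 0, a separate scale for each gene) for 3 members on top and their paralogs below, with circles, squares and diamonds for replicates 1, 2 and 3 and mean ± SD of 3 libraries. SHMT1 and MTHFD1 were lower in both groups with niclosamide than in DMSO, while MTHFD1L and MTHFD2 were higher in NSM.

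The rest of these routes is given by counts. Named genes are given in the comparison against DMSO where their change was largest, and some were called in other comparisons too. Of 45 genes on 6 lists of neighbouring pathways, 39 were tested. DSF raised 2 and lowered 4, NSM raised 5 and lowered 18, and DSF+NSM raised 8 and lowered 17, with median log2 fold changes of -0.12, -0.50 and -0.42, beside the shares of all genes given above. Of the 12 genes of the rest of the folate cycle, including the paralogs, 9 were lower under NSM and 9 under DSF+NSM. DHFRL1, a mitochondrial dihydrofolate reductase, fell by 2.33 (adjusted p = 1.46e-05, limma) and MTFMT, which formylates the mitochondrial initiator tRNA, fell by 1.86 (adjusted p = 3.91e-05) with both drugs. With NSM alone they were also called lower, at -1.24 (adjusted p = 0.00203) and -0.75 (adjusted p = 0.0201).

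Of 4 genes of glycine cleavage, the mitochondrial breakdown of glycine that also feeds one-carbon units, GCSH fell by 2.98 with both drugs (adjusted p = 0.000157, limma). It was also called lower with DSF (-1.80, adjusted p = 0.0183) and with NSM (-2.28, adjusted p = 0.00131). DSF+NSM was not called against DSF (adjusted p = 0.0535) or against NSM (adjusted p = 0.245). GLDC was called higher at 2.05 (adjusted p = 0.0333) from at most 14.0 normalized counts in any library, and lost the call without DMSO replicate 1 (adjusted p = 0.0838) or DMSO replicate 3 (adjusted p = 0.114). Of 5 genes of the methionine cycle, which uses folate-bound carbon, MAT2A, the main S-adenosylmethionine synthetase of such cells, had 5718 to 6395 normalized counts in DMSO, 725 to 765 in NSM and 1820 to 3027 in DSF+NSM, and fell by 3.04 with NSM (adjusted p = 2.09e-07). MTR, methionine synthase, fell by 1.46 (adjusted p = 0.000191) and its reductase MTRR fell by 0.72 (adjusted p = 0.000548) with both drugs.

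Around proline and glutamate (6 genes tested), ALDH4A1, which degrades proline, fell by 1.94 with NSM (adjusted p = 0.000474, limma) and OAT, ornithine aminotransferase, fell by 1.68 (adjusted p = 0.000649). OAT had 96.6 to 118 normalized counts in DMSO, 29.8 to 34.5 in NSM and 134 to 328 in DSF+NSM, so that it was lowest with niclosamide alone and highest with both. GLUL, glutamine synthetase, rose by 1.06 with both drugs (adjusted p = 8.21e-06). Around asparagine, aspartate and alanine (5 genes tested), ASL, argininosuccinate lyase, fell by 1.52 with NSM (adjusted p = 0.000372) and ASRGL1, an asparaginase, fell by 1.35 (adjusted p = 0.000327), while GPT2, the mitochondrial alanine transaminase, rose by 1.13 (adjusted p = 0.000243).

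Of 7 genes of serine use and transsulfuration, SDS, serine dehydratase, had 1.77 to 2.27 normalized counts in DMSO, 11.9 to 22.0 in DSF, 0 in all NSM libraries and 59.9 to 97.3 in DSF+NSM, and was called higher with both drugs (adjusted p = 8.03e-07, limma). The DMSO values correspond to at most 3 reads a library, so no fold is given. CTH, cystathionine gamma-lyase, rose by 1.39 with both drugs (adjusted p = 0.00359), a call that was lost with equal sums (adjusted p = 0.122), and CBS, cystathionine beta-synthase, by 0.94 with NSM (adjusted p = 0.00650).

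Genes whose log2 levels followed a member most closely over the 12 libraries were listed for 4 members, as a description of libraries that fall into 4 groups. For ASNS they were TTC9C (Pearson r = 0.988), H1F0 (0.987) and WASF2 (0.984). For PHGDH they were PCIF1 (0.985) and LILRA2 (0.983), a leukocyte receptor. For MTHFD2 they were RCOR3 (0.987), GFPT1 (0.985), the first enzyme of hexosamine synthesis, and STX3 (0.984). For PYCR1 they were MRPL43 (0.981), YIF1A (0.962) and AGAP3 (0.957).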

How the data were processed

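SHI-1 libraries of 4 groups (3 each) were analysed. The signal the authors deposited, in a separate table for each library, is a count per gene after division by a library factor, set over 24 libraries of which 12 are used here. The labels' processing notes name bcl2fastq 2.19, Trimmomatic, Bowtie2, Picard, featureCounts and DESeq2 on hg38, whereas the supplement names STAR and Salmon, so which aligner made these values was not settled. The library kit was unstranded and selected poly(A) RNA. The share of nonzero values that were multiples of the value of 1 read (tolerance 0.01) was 32.5% to 33.0%, so reads were not recovered, and depth is the sum divided by that value. Precision is limited by 3 libraries a group.

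Values were analysed as log2(value + 1) for genes that reached 10 in 3 or more libraries. R 4.3.3 and limma 3.58.1 were used (trend and robust options of eBayes, 1 fit of 4 group means, Benjamini-Hochberg adjustment over 13502 genes, threshold 0.05). The fit was tried on simulated counts with the same dispersion in every group and changes in NSM only. The wider spread of the NSM libraries was not simulated, so that trial does not speak for it. Summaries used Python 3.11.15 with numpy 2.4.6, pandas 2.3.3 and matplotlib 3.10.9. Gene positions and transcript lengths came from GENCODE 44, promoters from RefSeq. The members, the lists of other genes, the tests and the rule for named genes were chosen with earlier results of these data known. Named are all members, their closest paralogs, ATF4, DDIT3 and TRIB3, and, in each other list, the 3 genes with the largest change among those called against DMSO. The 3 genes most like ASNS, PHGDH, MTHFD2 and PYCR1 by Pearson correlation are also named. Some genes that these rules name are not reported here. Alternatives changed the scaling, pseudocount, filter, library weights, replicate block, groups in the fit and each library in turn. Scaling to equal sums without the 6 rRNA genes was added after seeing the data.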

Additional observations from a re-analysis of the deposited data

Results flagged for a closer look

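For 7 of the 10 genes the response to 1 drug differed with the other present, by the interaction term of the limma fit (adjusted p under 0.05), and they are set apart here for that reason. Of all genes tested, 14% were called below 0 and 12.1% above 0 for this term. The interaction on the log2 scale was -1.78 for ASNS, -2.84 for PHGDH, -1.33 for PSAT1, -0.83 for PSPH, -1.77 for MTHFD2, -1.38 for MTHFD1L and 3.25 for PYCRL. Of these, ASNS, PHGDH, PSAT1, MTHFD2 and MTHFD1L passed the threshold in all 21 alternatives run for this test, PSPH in 17 of 21 and PYCRL in 11 of 20.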

How the results depend on the processing

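Over the 60 log2 fold changes of the 10 members (6 comparisons each), median-of-ratios scaling, a pseudocount of 10, no filter and the fit with the replicate block left all 60 with their direction and side of the threshold. The labels do not say whether a replicate number marks a shared experiment. Of 18 correlations between same-numbered libraries 2 were over 0.1 (-0.0644 to 0.278), which did not meet the bar set for pairing, while 10 of 18 were highest with their own number, a hint from the data only. With the replicate block as a term 4 members were called higher for DSF, as without it. With equal sums, 1 member was called lower for DSF, and for DSF+NSM 0 were higher and 6 lower against DMSO, 7 lower against DSF and 8 lower against NSM. Equal sums without rRNA, chosen after seeing the data, gave 0, 6, 7 and 8 for the last comparisons. With equal sums the median of all genes for DSF+NSM was -0.75 against DMSO, -0.68 against DSF and -0.48 against NSM. Shares of all genes called on that scale are not given, so these counts cannot be read as particular to the members. A pseudocount of 0.1 called 0 members above 0 in the interaction (1 at an unadjusted p under 0.05). A filter of at least 10 in every library dropped PYCRL, leaving 1 lower for NSM and 0 higher both against NSM and in the interaction. Library weights called 3 lower for DSF, 8 higher for NSM, 2 higher and 7 lower against DSF, and 2 above 0 in the interaction. With only the groups compared in the fit, which does not apply to the interaction, 3 (ALDH18A1, PSPH and PYCRL) were lower for DSF. In that fit 7 were lower against DSF and 0 higher against NSM (1, PYCRL, at an unadjusted p under 0.05). Shares of all genes called are not given for the pseudocount, filter, weights and group settings either. Their member counts cannot be read as particular to the members.

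Leaving out 1 library at a time gave 2 to 6 members higher and 0 to 1 lower for DSF, 2 to 4 higher for DSF+NSM against DMSO, 0 to 1 higher and 2 to 7 lower against DSF, and 0 to 1 above 0 in the interaction. Shares of all genes called without these libraries are not given, so the same limit holds for these counts. Directions that turned with equal sums, each followed by the value without rRNA where it also turned, were those of SHMT1 for DSF (-0.021), PYCR1 for NSM (-0.21, -0.17), and for DSF+NSM against DMSO PHGDH (-0.088), PSAT1 (-0.63, -0.51), SHMT2 (-0.20, -0.071), MTHFD1L (-0.75, -0.62) and MTHFD2L (-0.44, -0.31). Against DSF they were ASNS (-0.39, -0.30), SHMT2 (-0.55, -0.46) and MTHFD2 (-0.53, -0.44), against NSM SHMT2 (-0.36, -0.27), MTHFD1 (-0.17, -0.078) and DDIT3 (-0.37, -0.28), and in the interaction ALDH18A1 (-0.15, -0.10). Library weights turned PSPH for NSM (0.14), MTHFD2 against DSF (-0.071), and SHMT2 (-0.20) and ATF4 (0.0018) against NSM. With 1 library left out the range crossed 0 for PYCR1 with DSF (-0.091 to 0.0062) and NSM (-0.23 to 0.60), SHMT1 with DSF (-0.0082 to 0.18), PSPH with NSM (-0.17 to 0.10), MTHFD2 against DSF (-0.080 to 0.30), and against NSM for SHMT2 (-0.20 to 0.34), ALDH18A1 (-0.049 to 0.024), ATF4 (-0.15 to 0.075) and TRIB3 (-0.48 to 0.16). The cause of these changes was not tested.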
